A study of Homo sapiens with 6 samples.

Results

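C1-27 and C1-14 were compared after the same 4 h of treatment, in 2 of the 6 nascent RNA libraries of the series, chosen by their treatment labels. C1-27 is an inhibitor of GSTO1, the omega-class glutathione transferase, and C1-14 is an analogue that the study calls inactive. Both were applied to HCT116, a human colorectal carcinoma line, C1-27 at 1 μM and C1-14 at 10 μM, so the times match and the doses do not, and any difference between the libraries cannot be told apart from one of dose. Each compound had 1 culture. The other libraries were 2 cultures given 0.01% DMSO for 4 h, 1 treated with C1-27 at 1 μM for 24 h and 1 treated with 10 nM siRNA against GSTO1 for 24 h. Every culture was labelled with bromouridine for the last 30 min, and the labelled RNA was captured and sequenced (Bru-seq), which reads transcription during that window rather than the mRNA already in the cell. Sense-strand reads were available for 22984 annotated genes, of which 21471 were longer than 300 bp and 7652 also had a mean above 0.5 RPKM (reads scaled to gene length and to the mapped reads of the library) over the C1-27 and C1-14 libraries.

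The genes described first belong to a pair of systems. Cells answer electrophiles and oxidants largely through NRF2 (gene NFE2L2), a transcription factor that KEAP1 holds at a low level by targeting it for degradation. When cysteines of KEAP1 are modified, NRF2 accumulates, pairs with small MAF proteins on antioxidant response elements and raises the genes that make glutathione, regenerate thioredoxin, supply NADPH and break down haem. Replication-dependent histone genes are short, lack introns, lie in clusters and are transcribed mainly in S phase, and their transcripts end in a stem-loop instead of a poly(A) tail.

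The promoters below show what sequence these genes carry at their starts. RefSeq (GRCh38.p14) gave 300 bases, 250 before and 50 after the annotated start, for 27 of the 37 genes of 6 antioxidant lists that passed the filter. GCLM, TXNRD1 and PIR are shown because they are antioxidant genes with higher values after C1-27 and a match to TGACNNNGC, the core of the antioxidant response element, read on both strands. The capitals mark each match in those 3 promoters. OSGIN1, the gene with the widest difference in that direction, has no match in its window and is printed for comparison. HIST1H1E (RefSeq H1-4) is a linker histone gene with higher values after C1-14, and its capitals mark CCAAT and TATAAA, which do not overlap, again on both strands.
GCLM: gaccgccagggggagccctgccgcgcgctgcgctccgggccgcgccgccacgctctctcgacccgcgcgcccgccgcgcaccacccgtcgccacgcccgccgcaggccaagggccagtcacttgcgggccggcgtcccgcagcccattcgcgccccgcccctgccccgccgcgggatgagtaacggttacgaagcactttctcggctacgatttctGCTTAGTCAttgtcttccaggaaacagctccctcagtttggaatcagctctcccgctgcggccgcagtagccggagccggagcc
TXNRD1: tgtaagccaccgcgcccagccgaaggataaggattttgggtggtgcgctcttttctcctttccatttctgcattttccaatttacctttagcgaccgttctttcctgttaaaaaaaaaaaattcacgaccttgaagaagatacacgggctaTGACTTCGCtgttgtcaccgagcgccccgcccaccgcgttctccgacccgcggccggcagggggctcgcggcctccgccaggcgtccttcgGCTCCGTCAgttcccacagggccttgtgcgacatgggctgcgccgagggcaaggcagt
PIR: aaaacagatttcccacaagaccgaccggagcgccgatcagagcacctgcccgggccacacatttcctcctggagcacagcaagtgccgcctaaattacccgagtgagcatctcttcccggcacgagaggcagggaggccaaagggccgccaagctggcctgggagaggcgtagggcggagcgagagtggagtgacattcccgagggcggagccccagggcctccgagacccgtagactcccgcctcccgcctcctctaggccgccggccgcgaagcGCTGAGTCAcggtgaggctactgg
OSGIN1: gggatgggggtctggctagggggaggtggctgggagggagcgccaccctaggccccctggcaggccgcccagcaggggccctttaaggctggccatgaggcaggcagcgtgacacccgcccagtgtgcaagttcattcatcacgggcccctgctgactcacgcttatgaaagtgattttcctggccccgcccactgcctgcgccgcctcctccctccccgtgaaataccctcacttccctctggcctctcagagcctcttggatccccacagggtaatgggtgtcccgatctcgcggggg
HIST1H1E: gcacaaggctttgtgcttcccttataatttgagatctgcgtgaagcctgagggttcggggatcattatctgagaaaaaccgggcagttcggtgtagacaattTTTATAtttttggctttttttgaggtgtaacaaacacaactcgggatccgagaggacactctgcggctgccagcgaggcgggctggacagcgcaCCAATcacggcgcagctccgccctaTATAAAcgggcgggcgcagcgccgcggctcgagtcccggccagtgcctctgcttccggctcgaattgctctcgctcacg
In the order printed, the windows lie at chr1:93909381-93909680 (minus strand), chr12:104215529-104215828 (plus), chrX:15493284-15493583 (minus), chr16:83952990-83953289 (plus) and chr6:26156079-26156378 (plus). RefSeq lists a further start of TXNRD1, whose window at chr12:104286782-104287081 holds 1 match.

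TGACNNNGC occurred in 13.3% of all 35116 RefSeq promoter windows and in 9 of the 27 antioxidant genes with a window (33.3%). Of those 27, it was present in 6 of 9 genes that were at least 1.4-fold higher with C1-27 and in 3 of the other 18. Only 9 of the 13 genes of these lists past that fold had a window. The lists were chosen with earlier results of these data known, so this split is not independent evidence. Among replication-dependent histone genes, 34 of the 41 that passed had a window. CCAAT was present in 28 of them (82.4%) against 34.6% of all promoters, and TATAAA in 26 (76.5%) against 11.5%. Neighbouring H2A and H2B genes that are transcribed apart from each other share much of 1 window, HIST1H2AG with HIST1H2BJ for example, so these counts are not independent. The percentages over all promoters count windows, whereas a listed gene counts once if any of its windows holds a match, so their units differ. A match is a description of the letters and not of a bound site.

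The files held 31020026 sense counts for C1-27 and 27364324 for C1-14, and 18112861 and 32906297 for the DMSO cultures. Of the 7652 genes, 41 (0.536%) were at least 1.4-fold higher with C1-27 than with C1-14 and 479 (6.26%) were at least 1.4-fold lower. The only replicate spread in the series is between the DMSO cultures, where culture 2 was at least 1.4-fold higher than culture 1 for 222 (2.84%) and lower for 1275 (16.3%) of 7825 genes under the same filter. The SD of the log2 ratio over genes was 0.311 between the compounds and 0.388 between the DMSO cultures, so most genes differed no more between the compounds than between cultures of 1 group. C1-27 lay above both DMSO cultures for 26 of the 41 genes, and C1-14 lay below both for 21. Of the 479, C1-14 lay above both DMSO cultures for 385 and C1-27 lay below both for 193. Over all 7652 genes, C1-27 lay above both for 1675 and below both for 1421, and C1-14 for 2112 and 1631. The compounds differed more than the DMSO cultures did in 28 of the 41 and in 343 of the 479. In 285 of the 479, DMSO culture 2 was also at least 1.4-fold below culture 1. The 41 and the 479 were chosen by the ratio itself.

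The edgeR quasi-likelihood test of the direct contrast over 14431 genes, which takes its spread from the DMSO pair and assumes that the lone libraries vary like it, called 0 genes higher with C1-27 (0.0%) and 22 lower (0.152%) at a Benjamini-Hochberg adjusted p under 0.05. At an unadjusted p under 0.05 it gave 31 higher and 169 lower. The spread in this fit was pooled over genes, so the DMSO difference of a single gene had no weight of its own. DESeq2 called 0 higher and 3 lower, with 11 and 94 at an unadjusted p under 0.05. The 22 genes were lower with C1-27 in the sense that they were higher with C1-14: C1-14 exceeded both DMSO cultures in all 22, by 1.62-fold to 22.9-fold over their mean, while C1-27 was below both in 11 and above both in 0. In all 22, DMSO culture 1 was also at least 1.4-fold above culture 2, by less than C1-14 was above C1-27. Over 5 alternative edgeR fits 12 of the 22 kept the call in every one, and 10 lost it in some. Those 10 were RPPH1 with a robust estimate of the spread, ACTG1, GAPDH and PTMA with DESeq2 size factors, and KRT18, HIST1H2AJ, HIST1H2BJ, HIST1H2BM, HIST1H3H and HIST2H2AB with library totals. GAPDH and PTMA also lost it without a count filter.

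**Figure D1:**
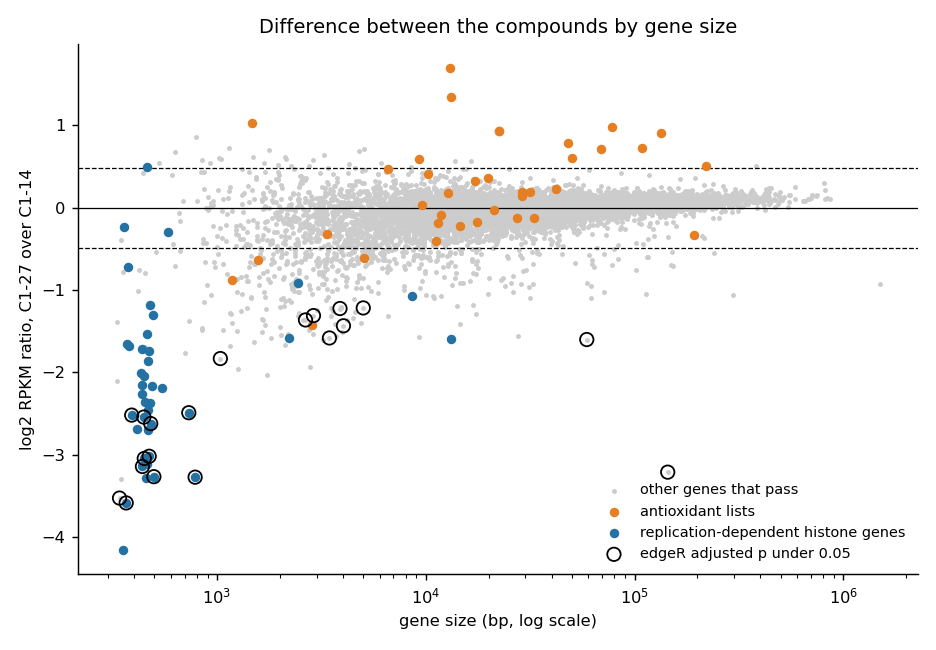
Log2 RPKM ratio of C1-27 over C1-14 (vertical axis) by gene size in bp (horizontal log axis) for the 7652 genes that passed, 1 point per gene. Orange points are the antioxidant lists, blue points the replication-dependent histone genes, rings the genes with an edgeR adjusted p under 0.05, and dashed lines 1.4-fold. Most blue points lie below the lower line and 13 orange points lie above the upper one.

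The genes with higher nascent RNA after C1-27 were led by the antioxidant programme. The 6 lists (glutathione, thioredoxin, NADPH, quinone and carbonyl, haem and iron, other NRF2-linked genes) held 56 genes, 37 of which passed. Of these, 13 were at least 1.4-fold higher with C1-27 (35.1%, against 0.536% of all genes that passed), 4 were at least 1.4-fold lower, and the median log2 ratio was 0.19 against 0.00 over all genes. Of the 13, 11 (all but ABCC2 and ME1) are in the study's table of genes raised by C1-27, which was chosen on the same library, so the share is not independent evidence of their direction. In all 13, C1-27 lay above both DMSO cultures, 1.36-fold to 3.65-fold over their mean, and C1-14 was 0.882-fold to 1.13-fold of that mean. All 13 differed more between the compounds than between the DMSO cultures. No member passed the edgeR threshold, so each is given by its values. The test can miss changes of this size. On simulated counts it found 81 of 100 2-fold changes at a dispersion (spread beyond counting error) of 0.01 and 10 at 0.05. The dispersion fitted here was 0.0381. The simulation gave every gene the same dispersion and no shift between the DMSO cultures, so it does not measure the power for these genes.

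OSGIN1, which encodes an oxidative stress-induced growth inhibitor, had the widest difference in this direction. It read 0.359 and 0.368 RPKM in the DMSO cultures, 1.33 after C1-27 and 0.409 after C1-14. The C1-27 library stood apart from the other 3, which lay close together. The ratio of C1-27 to C1-14 was 3.24 (edgeR log2 difference 1.70 ± 0.46 SE, 95% interval 0.80 to 2.60, adjusted p = 0.113), from 673 and 186 counts. The gene lies at chr16:83986827-83999937 (hg19). Over 5 alternative edgeR fits its adjusted p ranged from 0.0311 with DESeq2 size factors to 0.641 with library totals, and it was called in 2 of them.

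HMOX1, haem oxygenase 1, which breaks down haem to biliverdin and iron, read 0.338 and 0.310 RPKM in DMSO, 0.727 after C1-27 and 0.287 after C1-14. C1-27 was again the only library above the rest. The ratio was 2.53, from 370 and 131 counts (exact 95% interval for counting error 2.07 to 3.11, edgeR adjusted p = 1.0). ABCB6, a porphyrin transporter of the same list, read 0.614 after C1-27 and 0.407 after C1-14 (0.425 and 0.334 in DMSO), a ratio of 1.51. The ferritin genes went the other way: FTL read 9.38 after C1-27, 14.6 after C1-14, and 11.4 and 5.49 in DMSO. Its DMSO cultures were further apart than the compounds.

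Glutathione synthesis depends on cystine import and on glutamate-cysteine ligase. SLC7A11, the cystine importer, read 0.562 and 0.540 RPKM in DMSO, 1.19 after C1-27 and 0.603 after C1-14, a ratio of 1.98 (edgeR log2 0.99 ± 0.28, adjusted p = 0.185). GCLM, the modifier subunit of the ligase, whose promoter carries 1 match above, read 2.27 and 2.38 in DMSO, 4.74 after C1-27 and 2.48 after C1-14, a ratio of 1.91 (edgeR log2 0.94 ± 0.29, adjusted p = 0.325). In both genes the DMSO cultures and C1-14 formed a narrow cluster below C1-27. GCLC, the catalytic subunit, read 3.50 after C1-27 and 2.03 after C1-14, a ratio of 1.72 (2.32 and 1.97 in DMSO). GSR, which reduces oxidised glutathione, read 3.67 and 2.42, a ratio of 1.52 (2.68 and 2.17 in DMSO). The peroxidase genes of the list lay on the other side: GPX4 read 0.634 after C1-27 and 1.71 after C1-14 (1.12 and 0.636 in DMSO), and GPX1 2.09 and 3.85 (2.06 and 1.70). Over the 7 members that passed, 4 were past 1.4-fold higher and 2 lower, with a median log2 ratio of 0.60.

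TXNRD1, cytosolic thioredoxin reductase, read 4.11 and 5.09 RPKM in DMSO, 9.17 after C1-27 and 4.88 after C1-14. Its C1-14 value fell within the DMSO range, and C1-27 was 1.88-fold above C1-14 on 47186 and 22498 counts (edgeR log2 0.92 ± 0.37, adjusted p = 1.0). Scaled by library totals without TMM, edgeR called TXNRD1 as the 1 gene higher with C1-27 (adjusted p = 0.0257), and the other 4 edgeR fits gave 1.0. EID3 lies inside the TXNRD1 locus on the same strand, and its ratio of 2.05 (23.3 against 11.4 RPKM) cannot be told apart from reads of TXNRD1. Both genes are counted among the 13 above, so they are not separate evidence there. SRXN1, sulfiredoxin, read 4.41 after C1-27 and 3.18 after C1-14 (3.25 and 2.48 in DMSO), a ratio of 1.39, just under the threshold of 1.4. The thioredoxin gene TXN read 11.6 and 10.2 (8.79 and 9.07 in DMSO), and the peroxiredoxin gene PRDX2 read 0.884 and 1.35 (1.34 and 0.877 in DMSO). The list thus held 1 gene past the fold upward and 1 downward of 8, with a median log2 ratio of -0.13.

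Among genes that supply NADPH, ME1 (malic enzyme) was the 1 of 4 past the threshold, at 1.65 RPKM after C1-27 and 1.16 after C1-14 (1.17 and 1.26 in DMSO), a ratio of 1.42. TKT, TALDO1 and PGD of the pentose phosphate pathway had ratios of 1.14, 0.887 and 0.982. Of the detoxification list, ABCC2, which exports conjugates from the cell, read 0.975 after C1-27 and 0.595 after C1-14 (0.691 and 0.658 in DMSO), a ratio of 1.64. NQO1, the NADPH quinone oxidoreductase often used as an NRF2 readout, read 2.25 and 1.79, a ratio of 1.25. Its DMSO cultures, at 1.73 and 1.04, were further apart than that.

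The remaining NRF2-linked genes were CYP4F11, a fatty acid hydroxylase (0.854 after C1-27 and 0.446 after C1-14, 0.479 and 0.403 RPKM in DMSO, ratio 1.91), PIR, pirin (0.981 and 0.590, 0.715 and 0.584 in DMSO, ratio 1.66) and GLA, lysosomal galactosidase (1.22 and 0.913, 0.952 and 0.712 in DMSO, ratio 1.33). All 5 genes of that list, OSGIN1 and EID3 included, had their highest 4 h value after C1-27. All 5 are in the table of genes that the study chose as raised by C1-27 in the same library, so this is not independent evidence. Part of the PIR locus is also annotated as the read-through gene PIR-FIGF on the same strand.

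The regulators of the pathway differed little at this level. NFE2L2 itself read 5.97 and 5.91 RPKM in DMSO, 6.20 after C1-27 and 5.88 after C1-14 (ratio 1.05, edgeR log2 interval -0.50 to 0.66). KEAP1 read 1.16 after C1-27 and 1.10 after C1-14, inside its DMSO range of 0.938 to 1.51. None of the 8 regulators that passed reached 1.4-fold, the widest being SQSTM1 at 2.19 and 1.71, a ratio of 1.28.

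**Figure D2:**
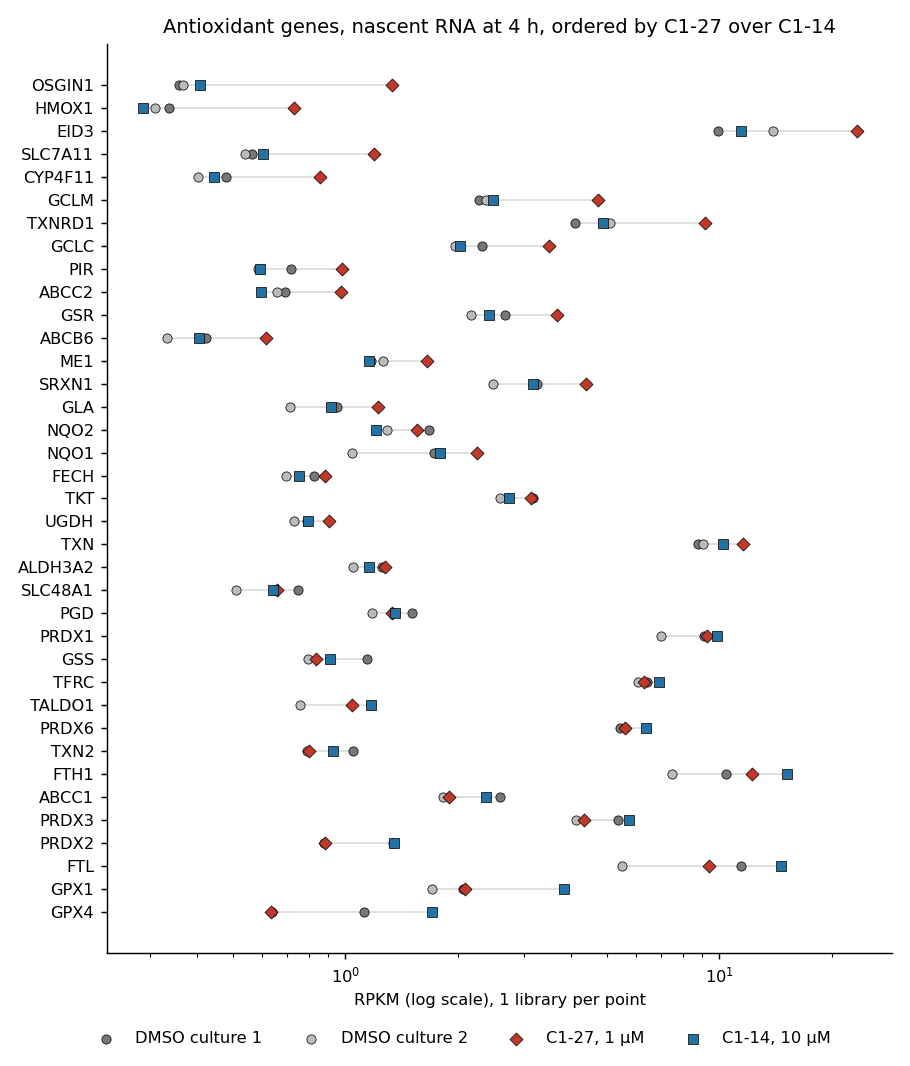
RPKM on a log axis of the 37 antioxidant genes that passed, 1 row per gene and 1 point per 4 h library, ordered by the ratio of C1-27 to C1-14. In the top 13 rows the C1-27 diamond lies to the right of the other 3 points, while in the bottom rows, GPX1 and GPX4 among them, the C1-14 square lies furthest right.

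The other 28 genes past 1.4-fold upward were of another kind. Of them, 22 were no longer than 5 kb and 14 had fewer than 100 counts with either compound. C1-14 lay below both DMSO cultures in 18, and C1-27 lay above both in 13. Their differences exceeded that between the DMSO cultures in 15 of 28. BACE1-AS, an antisense transcript of the beta-secretase gene, is an example: it read 0.989 after C1-27 and 0.544 after C1-14 on 30 and 15 counts, while the DMSO cultures read 1.18 and 0.893. NAV3, a neuron navigator gene, read 0.782 and 0.549 but 0.338 and 0.729 in DMSO, so its DMSO cultures were further apart than the compounds. GPANK1, an ankyrin repeat gene, read 0.654 and 0.399 against 0.491 and 0.384 in DMSO.

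GSTO1, the target of C1-27, and its relatives lay close together. GSTO1 (chr10:106013952-106027222, hg19) read 3.51 and 3.72 RPKM in DMSO, 3.78 after C1-27 and 3.82 after C1-14, on 1939 and 1756 counts for the compounds. All 4 values lay within a narrow band, and the edgeR log2 difference was -0.01 with a 95% interval of -0.59 to 0.58. The log2 RPKM ratio of -0.015 changed sign to 0.02 with DESeq2 size factors. GSTO2, the neighbouring omega-class gene, read 3.89 after C1-27 and 3.85 after C1-14 (3.81 and 3.90 in DMSO), with an interval of -0.53 to 0.57. Of 7 glutathione transferase genes that passed, 1 was past 1.4-fold: GSTP1, the pi-class enzyme, at 1.72 after C1-27 and 3.40 after C1-14 (2.88 and 1.79 in DMSO). The intervals of GSTO1 and GSTO2 would still cover a 1.4-fold difference.

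Replication-dependent histone genes gave the widest gap in the other direction. Of 73 in the files, 41 passed, and 38 of these were at least 1.4-fold lower with C1-27 than with C1-14 (6.26% over all genes), with a median log2 ratio of -2.19. The median size of the 41 was 460 bp, and 62.9% of the 89 genes of 0.3 to 1 kb were lower. In that class DMSO culture 2 was also at least 1.4-fold below culture 1 for 60.7%. Only 4 of the 41 were over 1 kb, so these histone genes make up much of the class. Summed over all 73 genes, the level was 162 RPKM after C1-27, 635 after C1-14, and 304 and 153 in the DMSO cultures. C1-14 lay above both DMSO cultures in all 41, whereas C1-27 lay above both in 3 and below both in 18. edgeR called 10 of them, and DESeq2 did not call any of those 10. Of the 38, 17 are in the study's table of genes raised by C1-14, chosen on the same library, and are not independent evidence of direction. More cells in S phase and more histone RNA per cell cannot be told apart in bulk libraries.

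HIST1H1E, a linker histone H1 gene whose promoter is printed above, read 20.0 and 5.04 RPKM in the DMSO cultures, 4.57 after C1-27 and 44.2 after C1-14. C1-14 was highest, DMSO culture 1 stood between, and C1-27 lay next to DMSO culture 2. The difference was 9.67-fold on 139 and 1202 counts (edgeR log2 -3.26 ± 0.47, adjusted p = 1.12e-08). DMSO culture 1 was itself 3.97-fold above culture 2, which had no weight of its own in that p-value, and DESeq2 did not call the gene. The same order held for HIST1H1C, also a linker histone (34.8, 13.2, 12.1 and 67.8 RPKM in DMSO 1, DMSO 2, C1-27 and C1-14, edgeR adjusted p = 3.88e-07). HIST1H4D, an H4 gene, read 6.52, 2.67, 1.76 and 21.1 in that order, a 12-fold difference on 25 and 269 counts (exact 95% interval for counting error 7.96 to 18.9).

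Core histone genes of each class were among those called. HIST1H2AG read 4.38 and 1.92 RPKM in DMSO, 2.09 after C1-27 and 20.2 after C1-14 (9.63-fold, edgeR adjusted p = 7.25e-04), and its divergent neighbour HIST1H2BJ read 7.64, 2.71, 2.43 and 14.9 (6.16-fold, adjusted p = 0.0314, and 0.244 with library totals). The pair HIST1H2AJ and HIST1H2BM differed 8.83-fold and 5.83-fold. HIST1H3H, HIST2H2AB and HIST1H4C differed 8.11-fold, 8.26-fold and 5.73-fold. In each of these genes C1-14 was the highest library and DMSO culture 1 came next. HIST2H2AB lies on chromosome 1, outside the cluster on chromosome 6 that holds the others named here. HIST1H4K had the widest ratio of the list, 17.9, but on 1 count against 16, with an exact interval of 2.77 to 749 for counting error only, and was too low to be tested.

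A few histone genes were close in both libraries. HIST1H4B read 25.7 and 27.3 RPKM in DMSO, 30.1 after C1-27 and 35.4 after C1-14, a ratio of 0.850 on 415 and 438 counts. HIST1H3E had a ratio of 1.41 in the other direction on 15 and 10 counts, with an exact interval of 0.565 to 3.35. These 2 genes and HIST2H2BC were the 3 of 41 that were not at least 1.4-fold lower with C1-27.

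**Figure D3:**
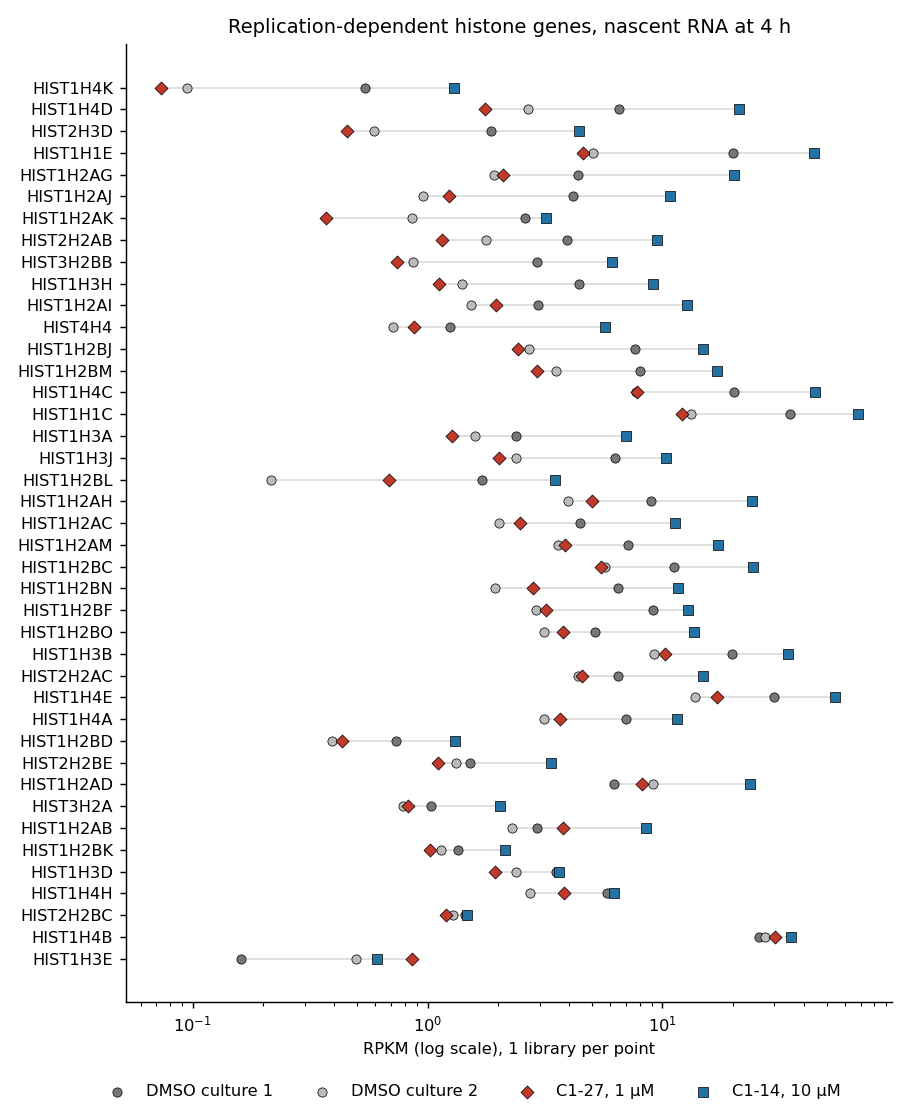
RPKM on a log axis of the 41 replication-dependent histone genes that passed, 1 row per gene and 1 point per 4 h library, ordered from the widest difference at the top. The C1-14 square is the rightmost point in 40 rows, DMSO culture 1 usually comes next, and C1-27 lies near DMSO culture 2.

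The difference between the DMSO cultures moved with that between the compounds in this group. DMSO culture 1 was at least 1.4-fold above culture 2 in 33 of the 41 genes, and the median log2 ratio of culture 2 over culture 1 was -1.14. Over the mean of the DMSO cultures the median log2 ratio was -0.49 for C1-27 and 1.56 for C1-14. Against culture 2 alone it was 0.05 for C1-27 and 2.14 for C1-14, and against culture 1 alone -0.94 and 1.12. C1-14 therefore exceeded either culture, while the sign for C1-27 depended on the culture. The part of library preparation in this pattern was not tested.

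Few genes that act beside histone synthesis were past the threshold. Of 28 DNA replication genes that passed, 1 was past 1.4-fold lower: CDT1, a licensing factor, at 0.759 after C1-27 and 1.20 after C1-14 (1.20 and 0.964 RPKM in DMSO). The list had a median log2 ratio of -0.04. PCNA, the sliding clamp, read 5.95 and 7.12, and MCM4, a helicase subunit, 4.18 and 5.20. Of 16 mitotic genes and 9 histone pre-mRNA factors, 0 were past 1.4-fold, with median log2 ratios of -0.10 and -0.05. Against the 6.26% of all genes that were lower, the counts of these lists and of the replication genes are not read as a result. Of 8 replication-independent histone genes, 4 were past 1.4-fold lower, against 6.26% of all genes and 9.78% of those of 5 to 10 kb. The list's median size was 6321 bp, and its median log2 ratio was -0.57, or -0.40 with the size-class median subtracted. Among the 4 was H2AFZ, the H2A.Z gene, at 9.11 after C1-27 and 20.2 after C1-14 (13.4 and 8.56 in DMSO, edgeR adjusted p = 0.276).

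RPPH1, the RNA of RNase P, which trims transfer RNA precursors, had the smallest p-value of all. It read 172 and 38.5 RPKM in the DMSO cultures, 56.7 after C1-27 and 654 after C1-14, on 748 and 7729 counts for the compounds. C1-14 lay far above the rest, and C1-27 lay between the DMSO cultures. The difference was 11.5-fold (edgeR log2 -3.52 ± 0.31, adjusted p = 2.74e-25). With a robust estimate of the spread in edgeR, or with DESeq2, the adjusted p was 1.0, and the DMSO cultures themselves were 4.47-fold apart. In the 24 h libraries it read 50.3 after C1-27 and 293 after siRNA against GSTO1. The gene is 341 bp long (chr14:20811230-20811570, hg19), close to the 300 bp limit.

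Other small noncoding RNAs lay on the same side. Of 9 in the list that passed, 7 were past 1.4-fold lower with C1-27, with a median log2 ratio of -1.01. The median size of these 9 was 353 bp, and 62.9% of all genes of 0.3 to 1 kb were also past 1.4-fold lower, with the same median of -1.01. After subtraction of the size-class median the list stood at 0.0. That class holds 89 genes, and of the 41 histone genes that passed only 4 were over 1 kb, so histone genes set much of its median. The count is therefore not read as a result about these RNAs. TERC, the telomerase RNA, read 3.79 and 1.62 in DMSO, 1.43 after C1-27 and 4.64 after C1-14, and the Cajal body RNA SCARNA2 read 26.4, 9.94, 9.01 and 18.2, so its highest value was in DMSO culture 1. RPPH1 was the 1 of these called by edgeR. SCARNA7, SCARNA9 and SCARNA10 lie inside KPNA4, KIAA1731 and NCAPD2 on the same strand, so their reads and those of these genes cannot be told apart. Host genes of small nucleolar RNAs, which are spliced transcripts, lay on the other side of 1 in 13 of 14, with a median log2 ratio of 0.15. GAS5 read 78.8 after C1-27 and 72.0 after C1-14 (71.1 and 73.6 in DMSO).

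Several highly transcribed protein-coding genes were also higher with C1-14. ACTB, cytoplasmic beta-actin, read 25.8 and 14.4 RPKM in DMSO, 15.1 after C1-27 and 45.2 after C1-14, a difference of 2.99-fold (edgeR log2 -1.57 ± 0.29, adjusted p = 9.28e-05). ACTG1, gamma-actin, read 45.0, 31.3, 36.4 and 90.2 in DMSO 1, DMSO 2, C1-27 and C1-14 (2.48-fold, edgeR adjusted p = 0.00597, and 0.0678 with DESeq2 size factors). In both, C1-14 was highest, DMSO culture 1 next, and C1-27 close to culture 2. TMSB10, a thymosin that binds actin monomers, differed 3.56-fold (9.89 and 35.2, adjusted p = 0.00403 in edgeR). GAPDH, the glycolytic enzyme, differed 2.34-fold (14.6 and 34.1), PTMA, prothymosin alpha, 2.32-fold (14.5 and 33.6), and RPL8, a ribosomal protein, 2.57-fold (9.58 and 24.6). KRT18, a keratin of simple epithelia, read 8.18 and 4.81 in DMSO, 4.39 after C1-27 and 11.9 after C1-14 (2.70-fold, edgeR adjusted p = 0.0384, and 0.186 with library totals). Related pseudogenes and paralogues of actin, GAPDH, PTMA and the histones could share reads with these genes, and how such reads were counted is not given in the sources used here.

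HSP90AA1, a cytosolic chaperone of the HSP90 family, read 4.28 and 2.66 RPKM in DMSO, 2.43 after C1-27 and 7.38 after C1-14 (3.03-fold, edgeR adjusted p = 4.86e-04), one of the 3 genes that DESeq2 also called. HSPB1, a small heat shock protein, read 0.867 after C1-27 and 3.54 after C1-14 (1.82 and 1.16 in DMSO, 4.08-fold, edgeR adjusted p = 0.276). Of 17 heat shock genes that passed, 3 were past 1.4-fold lower (6.26% over all genes that passed) and 0 higher (0.536%), and the median log2 ratio was -0.22.

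A last set of called genes was long and weakly transcribed. HFM1, a meiotic DNA helicase of 144104 bp, read 0.179 and 0.124 RPKM in DMSO, 0.119 after C1-27 and 1.10 after C1-14, on 664 and 5513 counts (9.27-fold, edgeR adjusted p = 6.17e-19). The DMSO and C1-27 libraries were close and C1-14 stood alone. ANKRD30BL gave 20 and 19 counts in DMSO, 22 after C1-27 and 524 after C1-14 (26.6-fold), and PDE3A, a cyclic nucleotide phosphodiesterase, gave 84, 54, 44 and 338 (8.57-fold). Neither reached 0.5 RPKM. Their siRNA libraries at 24 h held 1100, 80 and 119 counts for HFM1, ANKRD30BL and PDE3A. GENCODE (GRCh38) lists an rRNA pseudogene (RNA5-8SP5), a microRNA and a U6 pseudogene on the strand of ANKRD30BL. The files give 1 value per gene, so where in the gene the reads lie is not analysed here, and the part of such embedded genes was not tested.

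The difference between the libraries ran with gene size. From genes of 0.3 to 1 kb to genes over 300 kb, the median log2 ratio of C1-27 over C1-14 went from -1.01 to 0.11, and that of DMSO culture 2 over culture 1 from -0.80 to 0.14. The share of genes at least 1.4-fold lower with C1-27 was 62.9% of 89 genes in the smallest class and 27.1% of 623 genes of 2 to 5 kb, against 0.769% of 130 genes in the largest class. The 479 genes had a median size of 3887 bp against 27948 bp for all that passed, and 59.5% of them were no longer than 5 kb against 11.4% of all. The antioxidant genes past the threshold were long by comparison, with a median of 47788 bp, so the median of their size class was near 0. The share lower was also larger among strongly transcribed genes, at 22.8% above 10 RPKM and 5.62% between 0.5 and 1 RPKM.

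**Figure D4:**
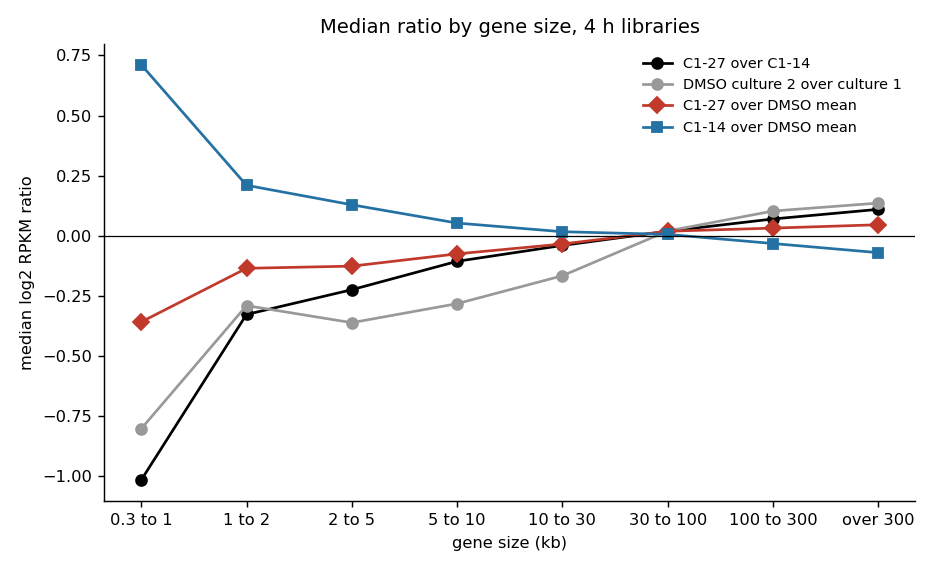
Median log2 RPKM ratio (vertical axis) by class of gene size in kb (horizontal axis) over the genes that passed. Black marks C1-27 over C1-14, grey DMSO culture 2 over culture 1, red and blue each compound over the mean of both DMSO cultures, which those 2 lines share. Black and grey both climb from the shortest class (-1.01 and -0.80) to the longest (0.11 and 0.14).

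When the median of each size class was subtracted, an alternative chosen after the data were seen, 129 genes were at least 1.4-fold higher with C1-27 and 316 lower. The histone median moved to a log2 ratio of -1.34 and that of the small noncoding RNAs to 0.0. Histone genes make up much of the 0.3 to 1 kb class, so the median subtracted there was partly set by the histone genes themselves. The glutathione list kept 0.58 and the other NRF2-linked genes 0.98. All 5 of the latter are in the study's table of genes raised by C1-27 in the same library, so their high median is not independent evidence. With that subtraction the snoRNA hosts stood at 0.43.

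**Figure D5:**
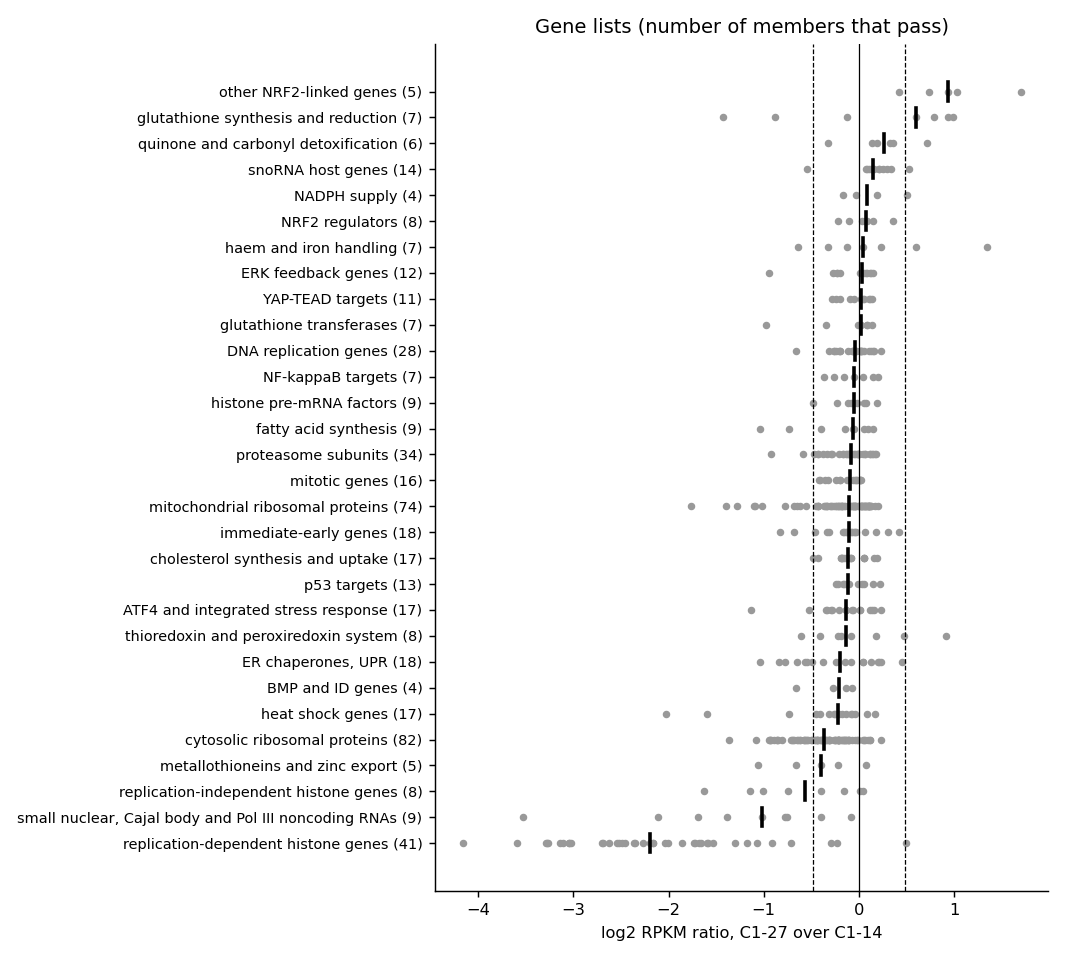
Log2 RPKM ratio of C1-27 over C1-14 (horizontal axis) for each gene list (rows, with the number of members that passed). Grey points are genes, black bars the list median and dashed lines 1.4-fold. Of the lists plotted, which leave out the study's own tables and the marker lists, the NRF2-linked and glutathione lists have the highest medians (0.94 and 0.60) and the replication-dependent histone genes the lowest (-2.19). All 5 genes of that NRF2-linked list are in the study's table of genes raised by C1-27 in the same library.

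Genes of protein synthesis and folding were mostly below 1. Of 82 cytosolic ribosomal protein genes that passed, 27 were past 1.4-fold lower with C1-27 and 0 higher, with a median log2 ratio of -0.36. Over all genes that passed 6.26% were lower and 0.536% higher, but the median size of the list was 4519 bp and 27.1% of all genes of 2 to 5 kb were lower. With the size-class median subtracted the list median was -0.15. Summed over all 88 in the files, the level was 1440 RPKM after C1-27 and 1940 after C1-14, with 1780 and 1320 in DMSO, so C1-14 and DMSO culture 1 were the higher pair. RPL8 was the 1 called. Of 74 mitochondrial ribosomal protein genes, 11 were past the fold lower and 0 higher (median -0.10, and -0.02 with the size-class median subtracted). Of 18 endoplasmic reticulum chaperone and unfolded protein response genes, 7 were lower and 0 higher (median -0.20, and -0.18 with that subtraction). CALR, calreticulin, read 4.16 after C1-27 and 8.53 after C1-14 (7.48 and 3.23 in DMSO), and HSPA5, the chaperone BiP, 6.72 and 11.5 (8.95 and 4.80). P4HB, a protein disulfide isomerase, read 1.95 and 3.06 (3.25 and 1.58 in DMSO, edgeR adjusted p = 1.0). In these genes the DMSO cultures were further apart than the compounds. DNAJB9, an ER co-chaperone, went the other way at 0.876 after C1-27 and 0.638 after C1-14 (0.569 and 0.557 in DMSO), a ratio of 1.37 on 173 and 113 counts (exact interval 1.08 to 1.75 for counting error).

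Other stress and growth pathways showed few members past the threshold. Against the 6.26% of all genes that were lower, counts of 1 or 2 members are not read as a result about a list, and the 2 of 34 proteasome subunits lay near that share. The ATF4 list of the integrated stress response had 0 higher and 2 lower of 17, DDIT4 (0.366 after C1-27 and 0.804 after C1-14, 0.887 and 0.546 in DMSO) and SHMT2 (1.69 and 2.43, 2.54 and 1.26 in DMSO). ATF4 itself read 12.2 and 14.9. Immediate-early genes had 2 lower of 18, JUND at 0.829 and 1.48 and JUNB at 0.449 and 0.721. CCND1, cyclin D1, was the 1 of 12 in the ERK feedback list, at 4.36 after C1-27 and 8.37 after C1-14 (6.55 and 4.62 in DMSO, edgeR adjusted p = 0.325). Fatty acid synthesis had 2 of 9, FASN at 0.816 and 1.68 (1.24 and 0.787 in DMSO) and SCD at 2.31 and 3.84 (3.07 and 2.36 in DMSO). Proteasome subunits had 2 lower of 34, PSMB6 and PSMB4. The list of metallothioneins and zinc export had 2 of 5, MT2A at 5.10 and 10.6 (7.34 and 7.35 in DMSO) and MT1E at 4.42 and 6.96 (4.81 and 4.19). Its median size was 1727 bp, and 36.8% of all genes of 1 to 2 kb were lower. Its median log2 ratio was -0.39, or -0.046 with the size-class median subtracted. The BMP and ID list had 1 of 4, ID3 at 0.710 and 1.12.

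The lists of 4 pathways had no member past 1.4-fold in either direction by RPKM ratio: p53 targets (13 passed), cholesterol synthesis and uptake (17), YAP-TEAD targets (11) and NF-kappaB targets (7). edgeR called 0 of their members, and 0 of them had an unadjusted p under 0.05. Over all genes that passed, 0.536% were higher and 6.26% lower, so 0 in lists this short is not read as a result about these pathways. CDKN1A, the cell cycle inhibitor induced by p53, read 1.18 and 1.32 RPKM in DMSO, 1.53 after C1-27 and 1.78 after C1-14. CYR61, a YAP target, read 7.69 after C1-27 and 8.80 after C1-14 (4.62 and 8.33 in DMSO).

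The cells carried the markers of their label. Of 5 colorectal epithelial markers 4 passed, and their summed level with CDH1 was 16.1 RPKM after C1-27, 32.5 after C1-14, and 27.0 and 17.4 in DMSO. KRT18, KRT8 and KRT19 were 2.70-fold, 2.00-fold and 1.8-fold higher with C1-14, EPCAM 1.34-fold and CDH1 1.03-fold. Markers of fibroblasts, endothelium and leukocytes summed to at most 0.147, 0.377 and 0.501 RPKM in any 4 h library, with DCN and CD3E at 0 in all of them, and 0 of those 9 genes passed.

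The study lists the genes it found most raised or lowered by each compound over DMSO, and these were chosen on the same libraries, so their direction here is not independent evidence. Of its 20 genes raised by C1-27 at 4 h, 18 passed, 14 were past 1.4-fold higher with C1-27 than with C1-14 and 0 lower. C1-27 was the highest of the 4 h libraries in 17. Of the 20 raised by C1-14, all passed and all were past 1.4-fold lower with C1-27, and edgeR called 10: RPPH1, HFM1 and 8 histone genes. Of the 20 lowered by C1-27, 17 passed and 9 were lower with C1-27. Of the 20 lowered by C1-14, 16 passed and 2 were higher with C1-27, BACE1-AS and ZNF572.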

How the data were processed

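Nascent RNA labelled with bromouridine was sequenced by the authors from 6 HCT116 cultures. The submitters' processing notes name CASAVA 1.8.2, Bowtie 0.12.8, TopHat 1.4.1, bedtools 2.16.2 and build hg19, and cDNA was cut from a gel near 300 bp. Annotation and the handling of reads with several matches are not given in the sources used here. The deposited tables give, per gene and strand, estimated counts that need not be whole, a coverage signal (reads per bp), which served only to recover library totals, and RPKM, which the authors scaled to mapped reads and the counted length of the gene.

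Following the study's filter, sense rows over 300 bp with a mean RPKM above 0.5 were kept, and a ratio of 1.4 was the threshold for each direction. With 1 culture per compound these ratios have no replicate check. Estimated counts were rounded and tested with edgeR 4.0.16 (R 4.3.3; TMM, glmQLFit and glmQLFTest, 5 groups over 6 libraries, at least 10 counts in at least 2 libraries). Its spread rests on 1 residual degree of freedom from the DMSO pair, so p-values measure only the spread between those samples. The prior degrees of freedom were estimated as infinite, so the spread was pooled over genes. A gene's own DMSO difference had no weight of its own in its p-value, SE or interval. Nothing says whether those samples were separate experiments. DESeq2 1.42.0 was an alternative, with other scalings, filters and pseudocounts. Intervals of count ratios are exact (Clopper-Pearson, 95%) and cover counting error only. Sums and ratios were computed with pandas 2.3.3 and scipy 1.17.1. The test was also run on simulated counts with 100 genes changed 2-fold and 100 changed 4-fold. It found 81 and 99 of them at a dispersion of 0.01, but 10 and 62 at 0.05. The common dispersion fitted to the data was 0.0381.

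Named genes were, per direction, the 10 with the widest ratio among genes past the filter, the fold and an edgeR adjusted p of 0.05 that also differed more than the DMSO pair; OSGIN1, HMOX1, SLC7A11 and DNAJB9; GSTO1, GSTO2 and P4HB; called genes of the study's lists; and up to 6 per list by size of ratio. Other genes that edgeR called, the genes without a 1.4-fold difference, low-count examples and the further antioxidant genes were named after their values were seen. The comparison and gene lists were chosen with earlier results of these data known.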

Additional observations from a re-analysis of the deposited data

Results flagged for a closer look

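The direct contrast in edgeR is also the difference between each compound's change over DMSO, since the DMSO cultures cancel from it. It called 22 genes, all lower with C1-27 than with C1-14, at an adjusted p under 0.05. The list holds 10 replication-dependent histone genes, RPPH1 and HFM1.

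Antisense reads lie outside the comparison. Of 425 antisense rows over 300 bp with a mean above 0.5 RPKM, 38 were at least 1.4-fold higher with C1-27 and 10 lower. C1-27 also lay above both DMSO cultures in 25 of the 38, and C1-14 lay above both in 5 of the 10. The share between the DMSO cultures was not counted for antisense rows, so these counts are not read as a result. The widest of the 38, antisense to ROMO1, rested on 68 counts after C1-27 and 26 after C1-14. The widest difference in either direction was antisense to UNC45B, a myosin chaperone gene of 41529 bp. It held 15304 and 27591 counts in the DMSO cultures, 30643 after C1-27 and 379981 after C1-14, or 15.8, 16.3, 19.1 and 264 RPKM. That row alone took 1.1% of the mapped reads of the C1-14 library and 0.0792% of the C1-27 library. At 24 h it read 36.5 RPKM after siRNA against GSTO1 and 14.0 after C1-27, and the sense strand of UNC45B held at most 1 count in any library. Antisense to BTRC, an F-box protein gene, C1-14 gave 9834 counts and C1-27 gave 1976, with 266 and 1457 in DMSO, while the sense strand gave 8143 and 9563. GENCODE (GRCh38) lists a U2 pseudogene (RNU2-59P) on that antisense strand of BTRC and an antisense transcript (AC022916.4) on that of UNC45B. Where in these genes the reads lie is not analysed here. These rows were chosen after their values were seen.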

How the results depend on the processing

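The 41 genes higher and 479 lower with C1-27 became 15 and 312 with a pseudocount of 0.5 RPKM, 1174 and 1906 without an RPKM filter, 3 and 141 at 2-fold, and 129 and 316 after subtracting the median of the gene-size class, which was added after seeing the data. A mean above 1 RPKM left 18 higher. edgeR called 1 gene higher with DESeq2 size factors, 1 with library totals and 1 without a count filter, in place of 0, and DESeq2 called 3 lower in place of 22. Without histone and short noncoding RNA genes, 40 genes were higher and 434 lower.

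List medians (log2) moved beyond the replicate spread in 13 cases of 210. A pseudocount of 0.5 RPKM took the other NRF2-linked genes to 0.52, metallothioneins and zinc export to -0.20 and the study's genes raised by C1-27 to 0.48. A mean above 1 RPKM took haem and iron handling from 0.04 to -0.32 and the other NRF2-linked genes to 0.72. Subtracting the size-class median gave -1.34 for replication-dependent and -0.40 for replication-independent histone genes, 0.0 for small noncoding RNAs and 0.43 for snoRNA hosts. That subtraction also gave -0.046 for metallothioneins and zinc export and 0.064 for immediate-early genes. For the study's genes lowered by C1-27 and by C1-14 it gave -0.24 and 0.53. The cause was not tested.

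Leaving out a DMSO culture gave histone medians over DMSO of -0.94 to 0.05 for C1-27 and 1.12 to 2.14 for C1-14, glutathione medians of 0.46 to 0.76 and 0.10 to 0.16, and medians of the other NRF2-linked genes of 0.78 to 0.83 and -0.06 to 0.14. It leaves no residual degrees of freedom, so edgeR was not run that way. No paired analysis was possible because replicate numbers are given for DMSO alone. Of the ratios of named genes, that of GSTO1 changed sign, from -0.015 to 0.02 (log2) with DESeq2 size factors, and 21 of 128 moved.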
